A study of Mus musculus with 7 samples.

Results

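The genes described here are Igf1, which encodes the secreted growth factor IGF1, Igf1r, which encodes its receptor, and the 6 genes Igfbp2, Igfbp3, Igfbp4, Igfbp5, Igfbp6 and Igfbp7, which encode IGF-binding proteins. They were chosen by symbol, 8 of the 31531 genes measured, and each symbol matched 1 gene. RNA came from muscle fibers of fetuses at embryonic day 17.5, with 4 libraries from WT mice and 3 from mice homozygous for the dyW allele of Lama2. The labels number the libraries separately, and the study counts them as independent samples. Lama2 encodes the laminin-α2 chain of the basement membrane around fibers, and the dyW mouse (strain B6.129S1(Cg)-Lama2tm1Eeng/J), in which this gene is disrupted, is a model of LAMA2-congenital muscular dystrophy. The mice came from heterozygous crossings, and no treatment is given for either group. The study describes the same protocol for both groups, in which epaxial muscles, the muscles along the back, were digested with dispase and collagenase and the fibers were collected on a strainer. Whether the 2 groups were processed together is not stated. The sources used here do not give the sex or litter of the fetuses. The comparison asks how the expression of these genes differs between WT and dyW fibers before birth.

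The values are normalized counts, that is, a gene's reads after division by the library's size factor. The reads on genes numbered 470804 to 2220813 in the WT libraries and 3663905 to 18297106 in the dyW libraries, so 1 read was worth 2.05 to 5.33 normalized counts in WT and 0.0974 to 0.488 in dyW. Low values are thus measured less finely in WT. The dyW libraries had more reads but fewer genes with a read, 14209 to 19360 against 25530 to 29594 in WT. Their normalized counts summed to 1.40e+06 to 2.31e+06, against 2.51e+06 to 5.54e+06 in WT. Depth and the number of genes detected followed the groups, so their part in any difference cannot be told apart from that of genotype. Lama2 itself had 90.6, 111, 105 and 107 normalized counts in WT1 to WT4, 4.29 in dyW1 and 6.07 in dyW2, but 139.7 in the library labelled dyW3, which lies above every WT library and goes against its label. The counts are summed over the gene, so reads from a disrupted transcript would be included. The summed count of 10 myofiber genes was 46.3 in dyW1, with 6 of the 10 at 0, against 2484 to 67061 in WT, 8026 in dyW2 and 4216 in the library labelled dyW3. The summed count of 6 cartilage genes was 436943 in WT1 and 19.7 to 8369 in the other libraries. The values of Igf1, Igfbp5 and Igfbp6 are therefore also given without WT1 and dyW1 and without the library labelled dyW3.

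IGF1 is secreted by many cell types, skeletal muscle and its connective tissue included, and binds the receptor tyrosine kinase IGF1R, which passes the signal through IRS adaptors to the PI3K-Akt-mTOR and Ras-MAPK arms. In muscle this signal is best known for promoting protein synthesis, the proliferation of myoblasts and fiber growth. IGF-binding proteins hold IGF1 and IGF2 outside the cell and, depending on the protein and the tissue, limit or prolong their action, and proteases free the ligand by cleaving them.

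Igf1, Igfbp5 and Igfbp2 had groups that did not overlap. The 100 bases before the annotated start of each are shown to place these genes on the genome, 5′ to 3′ on the gene's own strand, with matches to the motif GGGCGG in capitals. They were read from the GRCm39 genome at chr10:87693542-87693641 on the plus strand for Igf1, chr1:72914044-72914143 on the minus strand for Igfbp5 and chr1:72863506-72863605 on the plus strand for Igfbp2, and none of the 3 windows overlaps an annotated exon.
Igf1: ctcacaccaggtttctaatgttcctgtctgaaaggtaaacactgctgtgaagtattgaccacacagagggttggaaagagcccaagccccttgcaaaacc
Igfbp5: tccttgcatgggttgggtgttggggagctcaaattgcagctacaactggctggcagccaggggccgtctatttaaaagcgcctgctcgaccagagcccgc
Igfbp2: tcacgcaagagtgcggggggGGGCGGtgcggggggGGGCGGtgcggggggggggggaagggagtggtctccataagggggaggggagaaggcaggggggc
The same window of all 21770 protein-coding genes that have one was searched for 3 short motifs on both strands. GGGCGG was found in 23.9% of all windows and in 3 of the 8 windows here, those of Igfbp2, Igf1r and Igfbp7. CCAAT was found in 21.2% of all windows and, among the 8, before Igfbp3. TATAAA was found in 5.84% of all windows and, among the 8, before Igfbp4. The windows of Igf1, Igfbp5 and Igfbp6 held none of these letters. Igf1 has several annotated starts, of which the most upstream was used.

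Igf1, the ligand, was higher in every dyW library than in any WT library. The gene lies at chr10:87693642-87772904 on the plus strand. Its normalized counts were 53.3, 159, 229.7 and 113 in WT1 to WT4, against 252 in dyW1, 1353 in dyW2 and 1489 in the library labelled dyW3. The lowest dyW library stood just above the highest WT library, whereas the other 2 dyW libraries stood far above it. The mean of the 4 WT libraries was 139 ± 74.5 normalized counts (SD) and that of the 3 dyW libraries 1031 ± 678, 7.43 times as high. These values rest on 217 reads summed over the WT libraries and 16331 over the dyW libraries. The log2 fold change, on the scale of log2(normalized count + 1), was 2.70 with an SE of 0.784, a 95% interval of 0.92 to 4.48 and an adjusted P-value of 0.0285 in limma. The exact two-sided permutation test of the means gave p = 0.0571, the smallest value that 4 against 3 libraries allow. Without WT1 and dyW1 the log2 fold change was 3.14 (adjusted P-value 0.0169), and without the library labelled dyW3 it was 2.25 (adjusted P-value 0.0735). The gene Igf1os is annotated on the other strand, and its span overlaps that of Igf1. Whether exons of the 2 genes overlap was not checked. Where they do, their reads cannot be told apart, since the strand setting of the counting is not stated.

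**Figure D1:**
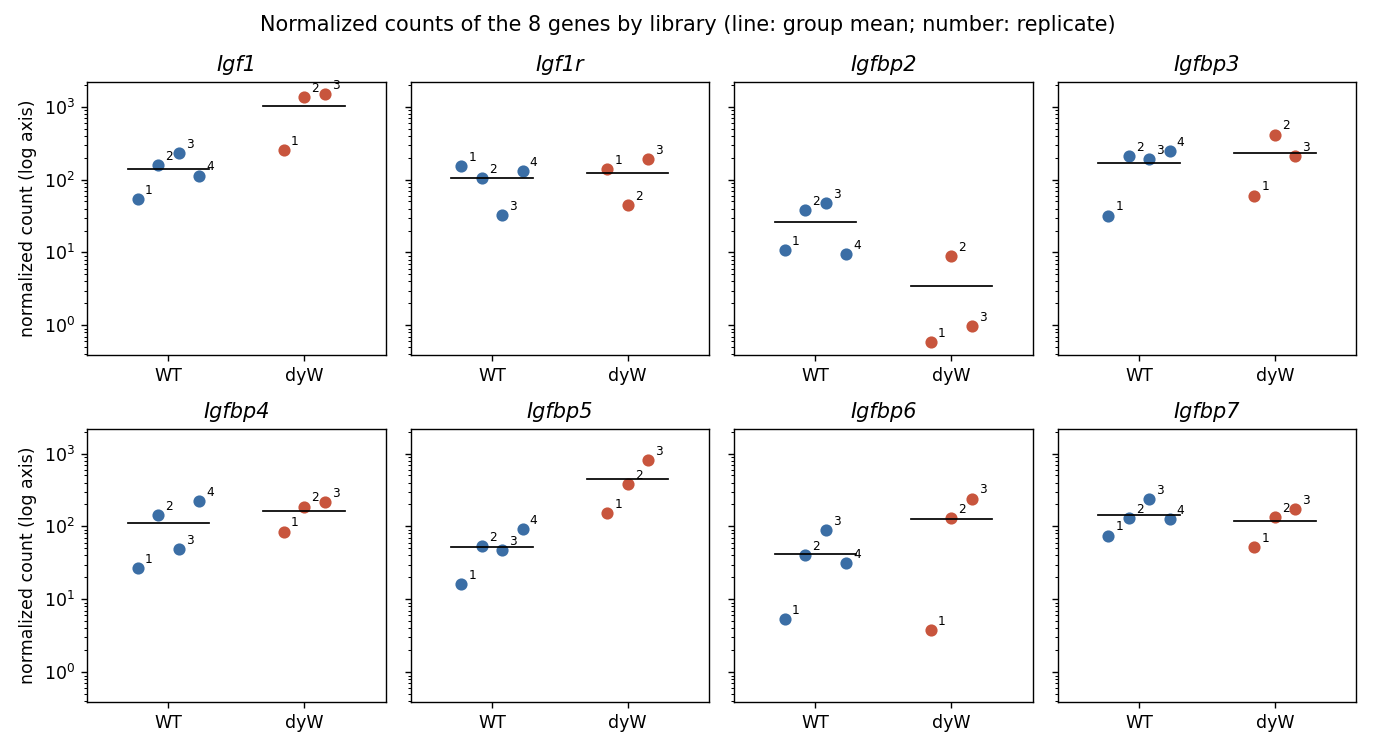
Normalized counts of the 8 genes on a log axis, 1 panel per gene, with 1 point per library (blue, 4 WT; red, 3 dyW), the replicate number beside it and a line at the group mean. The dyW points of Igf1 (252 to 1489) and Igfbp5 (152 to 810.2) lie above all WT points, those of Igfbp2 (0.585 to 8.85) lie below all WT points, and the groups overlap for the other 5 genes.

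Igf1r, the receptor gene, did not pass the test. It lies at chr7:67601518-67883416 on the plus strand. Its normalized counts were 155, 105, 32.8 and 132 in WT1 to WT4 and 138, 45.02 and 190.5 in dyW1, dyW2 and the library labelled dyW3. The groups overlapped almost fully, with means of 106 ± 52.9 (SD, 4 WT libraries) and 124 ± 73.6 (SD, 3 dyW libraries). The log2 fold change was 0.20 (SE 0.773, adjusted P-value 0.861) with a 95% interval of -1.55 to 1.96.

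Igfbp5, whose product is the binding protein most closely tied to the differentiation of muscle cells, was also higher in every dyW library than in any WT library. It lies at chr1:72897091-72914043 on the minus strand. Its normalized counts were 15.99, 53.9, 47.2 and 91.3 in WT1 to WT4, against 152 in dyW1, 379 in dyW2 and 810.2 in the library labelled dyW3. The dyW libraries spread widely, but the lowest of them exceeded the highest WT library. The mean rose from 52.1 ± 30.9 (SD, n = 4) to 447 ± 334 (SD, n = 3), 8.58 times the WT mean, on 75 reads summed over WT and 6216 over dyW. The log2 fold change was 3.00 with an SE of 0.799, a 95% interval of 1.19 to 4.81 and an adjusted P-value of 0.0194, and the exact permutation test again gave its smallest possible p of 0.0571. It was 3.15 (adjusted P-value 0.0173) without WT1 and dyW1, and 2.42 (adjusted P-value 0.0436) without the library labelled dyW3. No other annotated gene overlaps Igfbp5.

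The WT level of Igfbp5 was close to the level of genes that muscle is not known to use. Odorant and vomeronasal receptor genes, 1330 in number, had a median of 3.41 to 6.78 normalized counts per kb of exon in the WT libraries, of 0 in dyW1 and dyW2 and of 0.676 in the library labelled dyW3. Relative to this median, the level of Igfbp5 per kb was 0.781, 1.32, 2.15 and 2.57 times as high in WT1 to WT4, and that of Igf1 was 1.53, 2.29, 6.15 and 1.87 times as high. In the library labelled dyW3 the same ratio was 199.5 for Igfbp5 and 215 for Igf1. The part of such reads in the counts of Igf1 and Igfbp5 was not tested.

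Igfbp2, whose product is abundant in fetal tissues, was lower in every dyW library than in any WT library, but did not pass the test. It lies at chr1:72863606-72891634 on the plus strand, and its 3′ end and that of Igfbp5 face each other across 5457 bases. Its normalized counts were 10.7, 37.8, 47.2 and 9.44 in WT1 to WT4, against 0.585 in dyW1, 8.85 in dyW2 and 0.977 in the library labelled dyW3. WT4 and dyW2 were close, whereas WT3 and dyW1 lay far apart. The reads behind these values were few, at 2, 14, 23 and 3 in WT and 6, 70 and 2 in dyW. The WT mean was 26.3 ± 19.1 (SD, n = 4), against 3.47 ± 4.66 (SD, n = 3) for dyW, and the log2 fold change was -2.80 (SE 0.967, adjusted P-value 0.0568), against -0.18 with quantile normalization and -1.32 with a pseudocount of 10. The median log2 fold change of all tested genes was -1.99, so relative to this median the difference of Igfbp2 was -0.81, whereas that of Igf1 was 4.69 and that of Igfbp5 was 4.99. Genes with a mean between 50 and 1000 normalized counts, a range that holds Igf1 and Igfbp5, had a median of 0.21. Set against genes of like level, Igf1 and Igfbp5 thus stand out less than these 2 offsets show. The mean count of Igfbp2 passed the minimum for testing through the WT libraries. Relative to the median of the receptor genes, its level per kb was 1.5, 2.68, 6.22 and 0.768 times as high in WT1 to WT4 and 0.695 times as high in the library labelled dyW3. Neighbouring genes on 1 chromosome thus had group means that differed in opposite directions, Igfbp5 higher and Igfbp2 lower in dyW, although the second difference did not pass the test. With each library scaled to the myofiber genes, which set the median of all tested genes at 0.46, the log2 fold change of Igfbp5 was 6.31 and that of Igfbp2 was 0.03, and relative to that median they were 5.85 and -0.43.

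The other 4 binding-protein genes did not pass the test, and their groups overlapped. Igfbp3, which encodes the main IGF carrier of the blood, lies at chr11:7156086-7164179 on the minus strand and had 32.0, 208, 189 and 245 normalized counts in WT1 to WT4 and 60.2, 415 and 211 in dyW1, dyW2 and the library labelled dyW3. WT1 and dyW1 were the lowest of their groups, and the log2 fold change was 0.39 (SE 0.919, adjusted P-value 0.770). Igfbp4, whose product is a target of the pappalysin proteases, lies at chr11:98932064-98945218 on the plus strand and had 26.7, 143, 49.2 and 223 normalized counts in WT and 85.0, 187 and 214 in dyW. All 3 dyW libraries fell within the range of WT, and the log2 fold change was 0.89 (SE 0.83, adjusted P-value 0.440), 0.37 without WT1 and 1.37 without WT4.

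Igfbp6, whose product prefers IGF2 over IGF1, lies at chr15:102052697-102057953 on the plus strand and had the largest SE of the 8 genes. Its normalized counts were 5.33, 40.5, 88.2 and 31.5 in WT1 to WT4, against 3.80 in dyW1, 130.01 in dyW2 and 240.3 in the library labelled dyW3. The last 2 lay above every WT library and dyW1 below every WT library. The log2 fold change was 0.85 (SE 1.43, adjusted P-value 0.677), and it was 1.85 (adjusted P-value 0.106) without WT1 and dyW1 and -0.24 (adjusted P-value 0.903) without the library labelled dyW3. Igfbp7, which encodes a secreted protein that binds IGFs only weakly, lies at chr5:77493130-77555931 on the minus strand and had 74.6, 129, 238 and 126 normalized counts in WT and 52.0, 135 and 171 in dyW. The difference was small, with a log2 fold change of -0.29 (SE 0.657, 95% interval -1.78 to 1.2, adjusted P-value 0.762). The spans of genes on the other strand overlap those of Igfbp3, Igfbp6, Igfbp7 and Igf1r, and none overlaps Igfbp2 or Igfbp4. Overlap of exons was not checked, and where exons overlap, the reads cannot be told apart without the strand.

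Of the 8 genes, 2 were called higher in dyW and 0 lower by limma at an adjusted P-value under 0.05 with a log2 fold change past 1.5 in either direction. At the stricter adjusted P-value of 0.01, under which 0.0659% of all tested genes were called higher and 18.7% lower, 0 of the 8 were called. At an unadjusted p under 0.05 the numbers were 2 higher and 1 lower, the latter Igfbp2, beside 726 higher and 10707 lower of all 25791 tested genes. Limma-voom on the recovered reads called 0 of the 8 in either direction, also at an unadjusted p under 0.05. At that p it gave 140 higher and 9471 lower over all tested genes. Over all 25791 genes tested, the first of these rules called 1% higher (259 genes) and 29.6% lower (7625 genes). Among the 6005 genes whose mean lay between 50 and 1000 normalized counts, a range that holds 7 of the 8 genes and leaves out Igfbp2, it called 4.01% higher and 5% lower (300 genes). Every dyW library lay above every WT library for 3.28% of all tested genes and 12.4% of the genes in that range, and every WT library lay above every dyW library for 31.5% of all tested genes. The median log2 fold change was 0.62 over the 8 genes and 0.21 over the genes in the range.

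**Figure D2:**
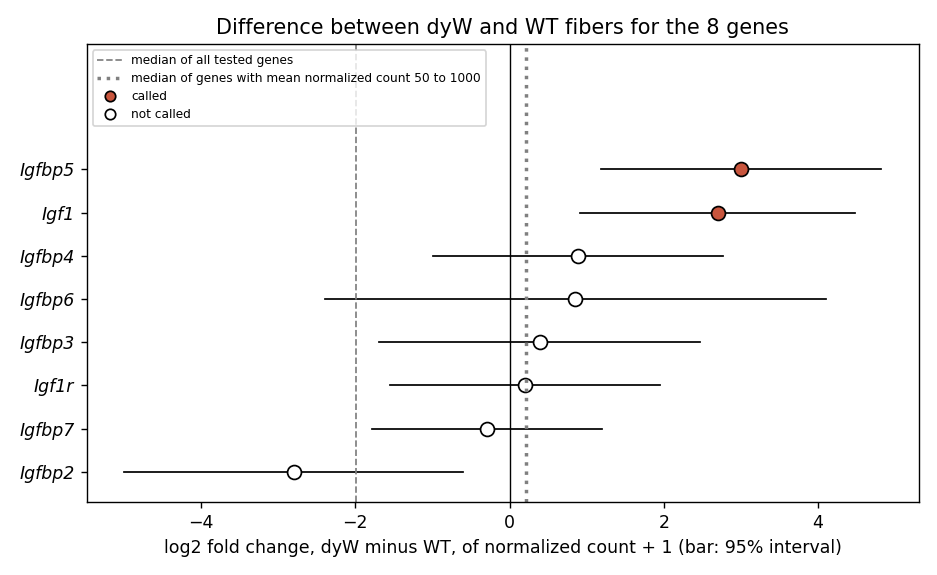
Log2 fold change (dyW minus WT, of normalized count + 1) of the 8 genes with the 95% interval from limma, and the medians of all tested genes (dashed) and of genes whose mean lay between 50 and 1000 normalized counts (dotted). The intervals of Igfbp5 (1.19 to 4.81) and Igf1 (0.92 to 4.48) lie above 0 and above both medians, and the interval of Igfbp2 includes the median of all tested genes.

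The calls of Igf1 and Igfbp5 depended on the treatment of the table. Igf1 was called in 7 of 18 other settings and Igfbp5 in 12 of 18, and the direction was the same in all 18 for both genes. With each library left out in turn, Igfbp5 was called in 7 of 7 fits, with adjusted P-values from 0.0156 to 0.0485. Igf1 was called in 2 of 7, with adjusted P-values from 0.0109 to 0.0904, and lost its call without WT1, WT2, WT4, dyW2 or the library labelled dyW3. With genes of a mean of at least 50 alone, the log2 fold changes did not move but the adjusted P-values rose to 0.111 for Igf1 and 0.107 for Igfbp5, in a table of 6111 genes in place of 25791. With every library scaled to the same total, the fold changes were 3.85 for Igf1 and 4.14 for Igfbp5 (adjusted P-value 0.0135 for both), and with quantile normalization they were 2.26 and 2.92 (adjusted P-values 0.226 and 0.186). The median of all tested genes was -1.24 and 0.06 under these 2 scalings, so relative to it the difference was 5.09 and 2.20 for Igf1 and 5.39 and 2.86 for Igfbp5. A median over genes of like level was not taken under these scalings. The genes called over the whole table numbered 259 higher and 7625 lower as deposited, 1252 and 5349 at the same total, and 17 and 82 after quantile normalization.

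**Figure D3:**
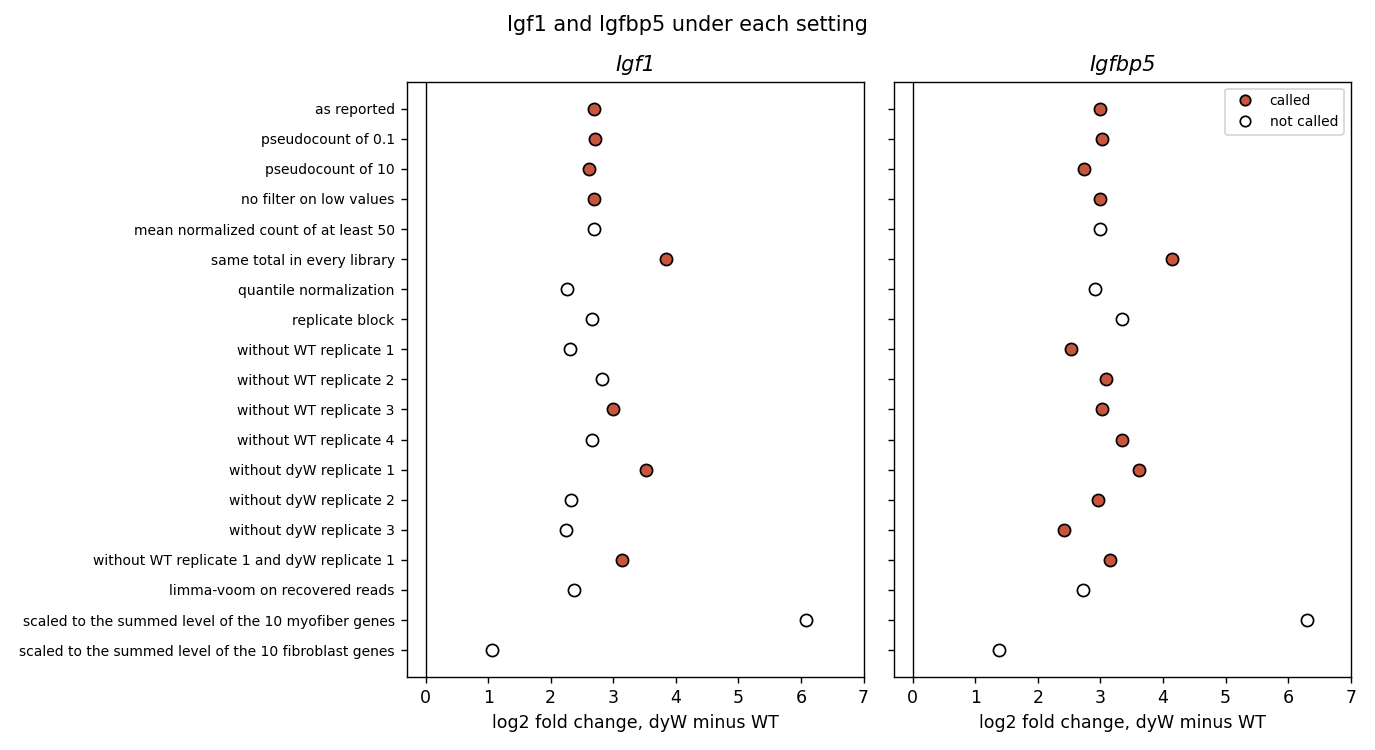
Log2 fold change (dyW minus WT) of Igf1 (left) and Igfbp5 (right) as reported and under 18 other settings, with filled points where the gene was called and open points where it was not. All points lie above 0, between 1.06 and 6.08 for Igf1 and between 1.37 and 6.31 for Igfbp5, and more points are filled for Igfbp5.

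The summed level of the fibroblast genes fixed as markers was also higher in dyW, although most of them did not pass the test singly. The summed normalized count of 10 fibroblast genes was 4468 to 13052 in WT and 21563 to 30559 in dyW, without overlap. Of the 10, 2 were called higher, Pdgfra (log2 fold change 1.98, adjusted P-value 0.0286) and Col1a2 (2.10, adjusted P-value 0.0157), 1 was called lower, Pi16 (-4.24, adjusted P-value 0.00886), and 7 were not called. Over all tested genes, 1% were called higher and 29.6% lower. In dyW1, 3 of the 10 were at 0, and its sum of 21845 came mostly from the collagen genes Col1a2 (12046) and Col1a1 (8467), whereas Col3a1 stood at 232 there against 581 to 4129 in WT. In bulk RNA, more cells of a type, more RNA per cell and a smaller part of RNA from other cells cannot be told apart. The same holds for fewer cells and less RNA per cell. For the macrophages, another known source of Igf1, the summed count of 8 genes was 155 to 364 in WT and 58.1, 109 and 1023 in dyW, with 6 of the 8 at 0 in dyW1. Of the 8, 0 were called, beside 1% higher and 29.6% lower over all tested genes.

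Per 1000 normalized counts of the fibroblast genes, Igf1 had 11.9, 18.4, 17.6 and 15.8 in WT1 to WT4, against 11.5 in dyW1, 44.3 in dyW2 and 69.1 in the library labelled dyW3. The level of dyW1 was thus below the WT range on this scale, and the other 2 dyW levels were above it. Since 2 collagen genes set most of the dyW1 sum, the scale does not rest on the same genes in every library. Igfbp5 had 3.58, 6.24, 3.61 and 12.7 in WT and 6.96, 12.4 and 37.6 in dyW, so that only the last lay above WT. With each library scaled to the fibroblast genes, the log2 fold change was 1.06 for Igf1 (adjusted P-value 0.226) and 1.37 for Igfbp5 (adjusted P-value 0.175), and neither was called. With the same scaling, Igfbp2 (-4.02, adjusted P-value 0.00412) and Igfbp7 (-1.92, adjusted P-value 0.0423) were called lower, and the signs of Igf1r, Igfbp3, Igfbp4 and Igfbp6 turned negative. Over all 25791 tested genes this scaling called 3 higher and 13980 lower, with a median of -3.05. Relative to that median Igfbp2 was -0.97 and Igfbp7 was 1.13. The part of fibroblasts in the difference of Igf1 and Igfbp5 was not tested.

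**Figure D4:**
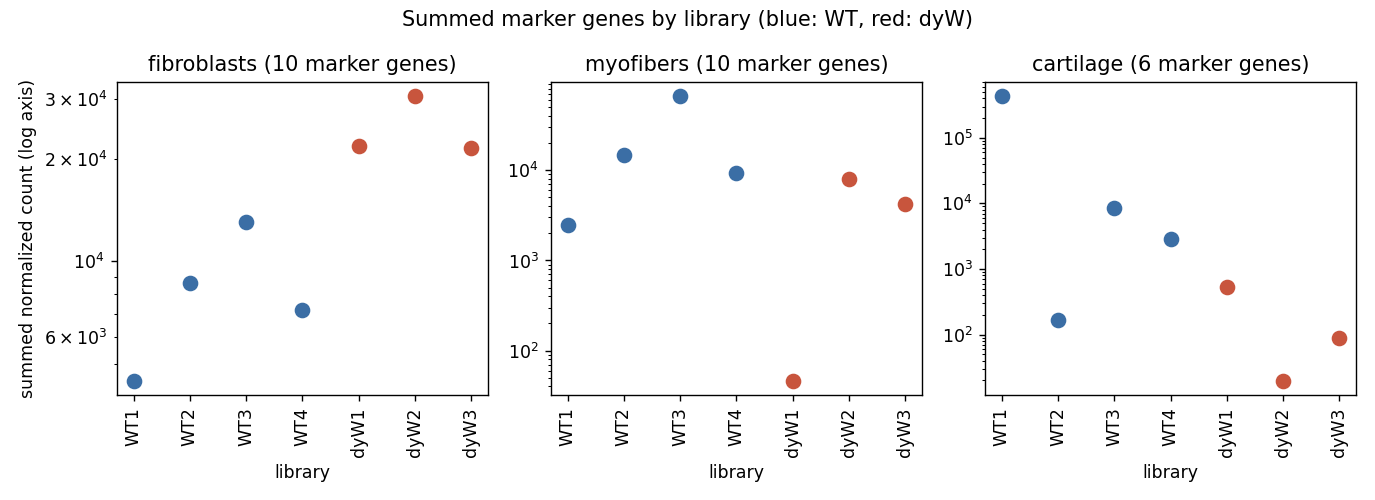
Summed normalized counts of the fibroblast, myofiber and cartilage marker genes in each library (log axes; blue, WT; red, dyW). The fibroblast sums of the 3 dyW libraries (21563 to 30559) lie above those of WT, the myofiber sum of dyW1 (46.3) lies far below the rest, and the cartilage sum of WT1 (436943) lies far above the rest.

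A share within a library does not depend on its size factor, so the binding proteins were also given as shares of their sum, by normalized count per kb of exon. The WT shares of Igfbp5 and Igfbp2 rest on 3 to 29 and 2 to 23 reads per library. A share can also hold reads that do not follow expression. The median of the odorant and vomeronasal receptor genes was 3.41 to 6.78 normalized counts per kb in WT and 0 to 0.676 in dyW. The part of such reads in the shares was not tested. Igfbp5 took 6.60, 5.26, 3.88 and 8.21% of the sum in WT1 to WT4 and 34.2, 18.3 and 30.1% in dyW1, dyW2 and the library labelled dyW3. Igfbp2 took 12.7, 10.6, 11.2 and 2.45% in WT and 0.380, 1.23 and 0.105% in dyW. Neither pair of groups overlapped. The mean share of Igfbp5 was 5.99 ± 1.85% (SD, 4 WT libraries) and 27.5 ± 8.25% (SD, 3 dyW libraries), a difference of 21.5 percentage points, and that of Igfbp2 was 9.26 ± 4.62% and 0.573 ± 0.589%. For both, the exact two-sided permutation test gave p = 0.0571, the smallest that the design allows, and 0.171 after Benjamini-Hochberg adjustment over the 6 shares, so neither could pass. Igfbp7 took 20.5 ± 9.83% in WT and 9.04 ± 3.35% in dyW, with overlapping groups (exact permutation p = 0.114). Its difference of -11.4 points was -6.96 points without WT1, and -17.97 points without division by exon length, where the exact permutation p was 0.0571. Without that division the difference was 31.2 points for Igfbp5 and -4.96 points for Igfbp2, at the same p. For Igfbp3, Igfbp4 and Igfbp6 the exact p-values were between 0.343 and 0.971. The share of Igfbp5 was higher by 18.4 points without WT1 and dyW1 and by 20.3 points without the library labelled dyW3.

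**Figure D5:**
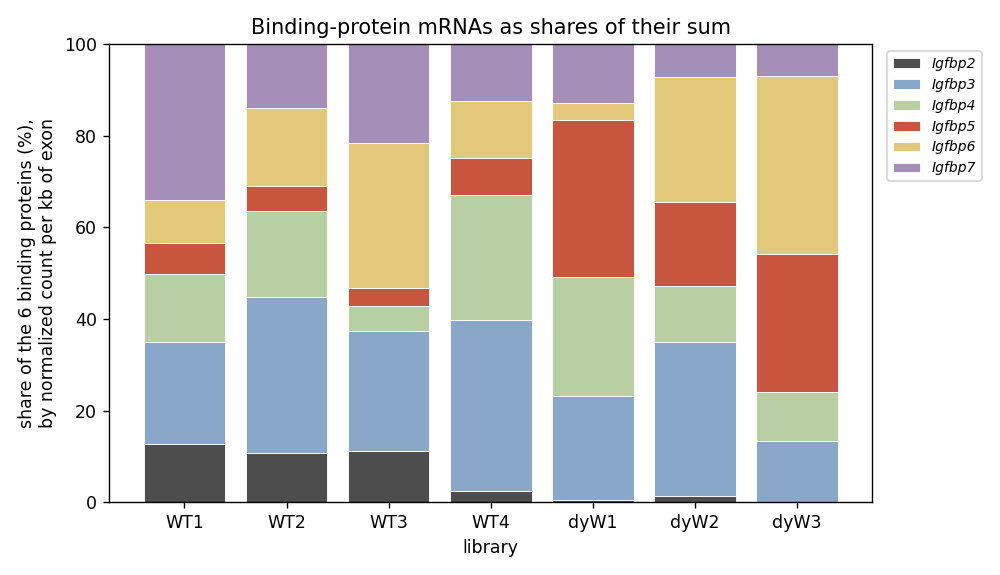
Shares of the 6 binding-protein genes in their summed normalized count per kb of exon, 1 bar per library, each bar adding up to 100%. The part of Igfbp5 (red) is 3.88 to 8.21% in the WT bars and 18.3 to 34.2% in the dyW bars, and that of Igfbp2 (dark grey) is 2.45 to 12.7% in WT and at most 1.23% in dyW.

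Levels per kb of exon allow the genes to be ordered within a group. In WT the order of the means was Igfbp3 at 47.2 ± 26.4 normalized counts per kb (SD, n = 4), Igfbp6 at 30.0, Igfbp7 at 26.1, Igfbp4 at 25.0, Igf1 at 13.6, Igfbp2 at 12.6, Igfbp5 at 8.67 and Igf1r at 5.37. No gene in this order exceeded the next in all 4 libraries, so neighbours could not be told apart. In dyW the order was Igf1 at 101 ± 66.3 (SD, n = 3), Igfbp6 at 90.4, Igfbp5 at 74.4, Igfbp3 at 64.2, Igfbp4 at 36.6, Igfbp7 at 22.0, Igf1r at 6.29 and Igfbp2 at 1.67. Here Igfbp4 exceeded Igfbp7, and Igfbp7 exceeded Igf1r, in 3 of 3 libraries, and the other neighbours did not keep their order. The exon length counted every annotated exon of a gene, which for Igf1 comes to 10234 bases, so a gene with many alternative exons is set low on this scale.

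Ratios between pairs of these genes, chosen after their values were seen and given without a test differed in how far the groups lay apart. Per kb, Igf1 stood to Igfbp3 at 0.161 to 0.581 in WT and at 1.46, 1.14 and 2.45 in dyW1, dyW2 and the library labelled dyW3. Igfbp5 stood to Igfbp2 at 0.346 to 3.35 in WT and at 90.0, 14.8 and 287 in dyW. These ratios are coarse, since Igfbp2 had only 2, 14, 23 and 3 reads in WT1 to WT4. In dyW1, dyW2 and the library labelled dyW3 it had 6, 70 and 2. Igf1 stood to Igfbp5 at 0.729 to 2.86 in WT and at 0.972, 2.09 and 1.08 in dyW, with full overlap of the groups. Igf1 stood to its receptor gene Igf1r at 0.666 to 13.5 in WT and at 3.53, 58.04 and 15.1 in dyW, with overlap.

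Of 65 other genes of the pathway, 0 were called higher and 7 lower by limma, and 58 were not called, beside 1% higher and 29.6% lower over all tested genes. At an unadjusted p under 0.05 the numbers were 0 higher and 8 lower, beside 726 higher and 10707 lower of all 25791 tested genes. Limma-voom gave 0 and 7 at the same p, beside 140 and 9471 over all tested genes. The median log2 fold change of the 65 genes was -0.39. The other ligand and receptor genes held 2 of the 7. Igf2, the second IGF ligand and the main one of fetal life, had 267, 64.7, 20.5 and 72.4 normalized counts in WT1 to WT4 and 21.2, 0 and 51.3 in dyW1, dyW2 and the library labelled dyW3, where dyW2 held no read and each other library held at least 10. Its log2 fold change was -2.79 (SE 1.40, adjusted P-value 0.158). Igf2r, which encodes the receptor that clears IGF2, had a log2 fold change of 0.61 (adjusted P-value 0.519), and Insr, the insulin receptor gene, one of -1.15 (adjusted P-value 0.409). Insrr, which encodes an orphan receptor of the insulin receptor family, had 5.33 to 44.1 normalized counts in WT and was at 0 in dyW (adjusted P-value 0.00868). Ins1, an insulin gene, had 2.05 to 53.3 normalized counts in WT and at most 0.487 in dyW (adjusted P-value 0.0243).

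All 7 called genes passed the minimum mean for testing through the WT libraries alone, so a lower level in dyW was built into their selection, and their adjusted P-values are to be read with that limit. The remaining 5 were also few in reads. Igfals, which encodes the subunit that joins IGF and IGFBP3 in the ternary complex of the blood, had 10.7 to 16.4 normalized counts in WT and 0 in dyW (adjusted P-value 0.00372), and Igfbpl1, a relative of the binding proteins, had 10.3 to 15.99 in WT and at most 0.126 in dyW (adjusted P-value 0.00374). Pappa2, a protease of the binding proteins, had 21.3 to 56.6 in WT and at most 0.195 in dyW (adjusted P-value 0.00372), and Stc2, an inhibitor of such proteases, had 10.3 to 18.9 and at most 0.390 (adjusted P-value 0.00413). Pik3cb, a catalytic subunit of PI3K, had 5.33 to 59.8 in WT and at most 1.46 in dyW (adjusted P-value 0.0104). Summed over the 4 WT libraries these genes rest on 20 reads for Igfals, 17 for Igfbpl1, 60 for Pappa2, 18 for Stc2 and 49 for Pik3cb, with 30 for Insrr and 21 for Ins1. Relative to the median of the odorant and vomeronasal receptor genes, their WT levels per kb were 0.626 to 1.42 times as high for Igfals, 0.459 to 1.35 for Igfbpl1, 0.607 to 1.2 for Pappa2, 0.341 to 0.548 for Stc2, 0.186 to 1.2 for Pik3cb and 0.273 to 1.3 for Insrr. Ins1 spread more, at 14.7, 1.12, 0.529 and 3.51 times that median in WT1 to WT4. A count of 0 in dyW allows up to 3 reads, which is 0.292 normalized counts in dyW1 and 1.47 in the library labelled dyW3, and such limits cover counting error only because the reads were amplified without molecular identifiers.

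The signaling arms held 1 of the 7 calls, where 1% of all tested genes were called higher and 29.6% lower. Of 24 genes of the adaptors and the PI3K-Akt-mTOR arm, 23 were not called, with a median log2 fold change of 0.06, and of 10 genes of the Ras-MAPK arm 0 were called, with a median of 0.28. Of 8 inhibitors of the signal 0 were called, with a median of 0.58. Of the 5 Foxo factors and their atrophy targets 0 were called, with a median of -1.47, and of the 3 genes for Igf2 mRNA-binding proteins 0 were called, with a median of -0.70.

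The genes whose pattern over the 7 libraries was most like that of each member were found among 6073 other genes with a symbol that averaged 50 normalized counts or more, by Pearson's r of log2(normalized count + 1). The points share their libraries and differ in depth, and r serves as a description. Nearest to Igf1 were Serbp1 (r = 0.992) and Kifap3 (0.991), with Serbp1 at 144 to 326 normalized counts in WT and 443, 1024 and 1019 in dyW. Nearest to Igfbp5 were Xrn2 (0.985) and Hsph1 (0.975), with Xrn2 at 32.0 to 72.8 in WT and 135, 223 and 354 in dyW. For Igf1r they were Zbtb44 (0.995) and Pik3c2a (0.970), for Igfbp3 Gskip (0.978), and for Igfbp4 Nol7 (0.922) and Col4a2 (0.917). For Igfbp6 they were Crabp1 (0.988) and Postn (0.985), and for Igfbp7 Atp5b (0.982) and Myl4 (0.973). Igfbp2 had Timm50 (0.942) and Smtnl2 (0.923) nearest to it, among 6074 genes.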

How the data were processed

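The authors deposited normalized counts for 31531 genes in 7 libraries: SMART-seq2 cDNA was tagmented with Nextera XT, and the reads were trimmed with Cutadapt, aligned to GRCm39 with RNA STAR, counted per gene (uniquely mapped reads) with FeatureCounts and divided by 1 DESeq2 size factor per library. Tool versions, annotation release and strand setting are not given in the sources used here. A second deposited table holds the authors' own DESeq2 comparison (fold changes and P-values) and was not used.

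Values were whole multiples of 1 step per library (100% within 0.02), which gave the reads, 470804 to 18297106 per library. WT and dyW were compared in limma 3.58.1 (R 4.3.3; linear fit, moderated with an intensity trend) on log2(normalized count + 1), over all 7 libraries and every gene that averaged 5 or more, with Benjamini-Hochberg adjustment. Called genes had an adjusted P-value under 0.05 with a log2 fold change past 1.5 in either direction, a pair of thresholds the study used. Single values were tested by exact two-sided permutation (35 arrangements). The labels number the replicates separately and the study calls them independent samples, but the labels do not state that each came from a different fetus. Coordinates and exon lengths were from GENCODE vM39 (99.2% of genes). The pipeline was tested on simulated data. Tables were handled in Python 3.11.15 with pandas 2.3.3, numpy 2.4.6 and scipy 1.17.1, and drawn with matplotlib 3.10.9.

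The genes named were all 8 members, called genes of the pathway lists with Igf2, Igf2r and Insr, the 2 genes most like each member (1 of these is not reported here), and Lama2. Fibroblast markers named are those called, with Col1a1 and Col3a1, which were chosen after their values were seen. Members and lists were chosen with earlier results of these data known. The alternatives tried were no filter or a mean of at least 50, a pseudocount of 0.1 or 10, the same total, quantile normalization, a replicate block, each library left out, an adjusted P-value under 0.01 and no fold change minimum. Limma-voom on recovered reads, scaling to myofiber or fibroblast genes, and leaving out WT1 with dyW1 were chosen after seeing the data.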

Additional observations from a re-analysis of the deposited data

Results flagged for a closer look

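Among 25 groups of 4 WT values examined, 1 held a library far from the others, where chance gives about 1 in 20. Insr, the insulin receptor gene, had 155 normalized counts in WT1 against 83.6, 82.1 and 85.0 in WT2, WT3 and WT4, so that the gap of WT1 to the nearest library was 0.96 of the whole range, past the critical value of Dixon's test for 4 values.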

How the results depend on the processing

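Of 8 genes, 2 were called higher and 0 lower. The number called higher fell to 0 with a mean of at least 50, quantile normalization, an adjusted P-value under 0.01, the replicate block, limma-voom on recovered reads, and scaling to the myofiber or fibroblast genes, and was 1 to 2 with each library left out. The number called lower was 0 to 1 with each library left out (1 without dyW2, Igfbp2) and 2 with fibroblast scaling. Igf1 kept its direction but lost its call with a mean of at least 50 (2.70), quantile normalization (2.26), the block (2.66), limma-voom (2.38), and myofiber (6.08) and fibroblast scaling (1.06), and ranged from 2.25 to 3.53 with each library left out. Igfbp5 lost its call under the same settings, at 3.00, 2.92, 3.34, 2.71, 6.31 and 1.37, and in no fit with 1 library left out (2.42 to 3.62). Igfbp2 passed with fibroblast scaling (-4.02) and without dyW2 (from -3.62 to -2.31 over libraries left out), and was 0.028 with myofiber scaling, -0.18 with quantile normalization and -1.32 with a pseudocount of 10. The sign turned for genes that did not pass. Igf1r was -0.23 with quantile normalization, -1.42 with fibroblast scaling and -0.28 to 0.81 with each library left out. Igfbp3 was -0.23 with quantile normalization, -1.24 with fibroblast scaling and -0.28 to 1.15 with each library left out. Igfbp4 was 0.37 to 1.37 with each library left out. Igfbp4 was -0.74 and Igfbp6 -0.67 with fibroblast scaling, and Igfbp6 was -0.15 with limma-voom and -0.24 to 2.59 with each library left out. At the same total and with myofiber scaling, Igf1r was 1.34 and 3.48, Igfbp3 1.53 and 3.77, Igfbp4 2.03 and 4.21, and Igfbp6 1.94 and 4.10. Igfbp7 was 0.85 at the same total, 3.09 with myofiber scaling, -0.63 to 0.22 with each library left out, and -1.92 and called lower with fibroblast scaling. With each library left out, the difference in share was -2.15 to 15.4 points for Igfbp6 and -5.73 to 3.21 points for Igfbp4 (the lowest without both WT1 and dyW1). The pathway genes called higher were 4 at the same total and 0 to 2 with each library left out. Those called lower were 2 with a pseudocount of 10, 22 with fibroblast scaling, 0 with a mean of at least 50, quantile normalization, the block and myofiber scaling, and 6 to 10 with each library left out. Over all genes, 259 were called higher and 7625 lower, against 183 and 3095 with a pseudocount of 10, 0 and 3 with a mean of at least 50, 1252 and 5349 at the same total, 17 and 82 with quantile normalization, 28 and 7957 with limma-voom, 0 and 0 with myofiber scaling, 3 and 13980 with fibroblast scaling, 17 and 4830 at an adjusted P-value under 0.01, and 78 to 381 and 5357 to 10741 with each library left out. The cause of these changes was not tested.

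The replicate numbers of the 2 groups did not pair the libraries (r of same-numbered deviations 0.147, -0.049 and -0.088). The replicate block dropped WT4, called 0 genes higher and 4 lower over all genes, and gave adjusted P-values of 0.0505 for Igf1 and Igfbp5. A planned edgeR test on recovered reads was not run, and limma-voom, chosen after seeing the data, took its place. The WT libraries, with 470804 to 2220813 reads, limit the precision of the lowest values, such as Igfbp2 at 2 reads in WT1.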
